A study of Mus musculus with 12 samples.

Results

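Cytosolic ribosomal proteins are the protein subunits of the ribosome that works outside the mitochondria. Their genes were taken as the protein-coding rows whose symbol begins with Rpl or Rps in the pattern of ribosomal proteins, leaving out the S6 kinases and the pseudogenes, and 86 of 54532 genes met this rule. They comprised 43 proteins of the large subunit, 3 of the P stalk, 31 of the small subunit and 8 paralogs of such proteins. The remaining gene, Rps19bp1, encodes a protein that binds RPS19 and is no ribosomal protein. Of the 86 genes, 83 had enough counts to be tested. Rpl3l, a paralog of heart and skeletal muscle, and Rpl39l and Rpl10l, paralogs of the testis, did not, and Rpl10l had 0 counts in every library.

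RNA sequencing had been done on pancreatic islets, which hold the insulin-producing beta cells, from male C57BL/6 mice with a knockout of Sirt3 selective for beta cells (KO) and from wild type mice, abbreviated WT. Its product is a deacetylase of the mitochondria, and non-beta cells of the islet still carry the gene in KO mice. Animals had eaten a standard diet with 6.2% fat (STD) throughout or chow deriving 60% of its calories from fat (the high fat diet, HFD) for 36 weeks, and each of the 4 groups had 3 libraries. Before the high fat diet, WT mice had 4 weeks of standard food, whereas HFD KO 1 and 3 had 6 weeks and HFD KO 2 had 5. Genotype and this earlier period cannot be told apart within the high fat groups, and for KO mice the periods add up to more than the labelled age of 40 weeks. The labels do not name the Cre line or say whether animals were pooled. Nor do they tie each library to an animal of its own, so the p-values rest on the spread among libraries, which may be technical.

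The large subunit joins amino acids into protein, the small subunit reads the messenger RNA, and the P stalk of Rplp0, Rplp1 and Rplp2 recruits the elongation factors. The large and small subunits are used in equal numbers per ribosome, and the messenger RNAs of their proteins are commonly made and translated together. Most begin with a C followed by a run of pyrimidines, the 5′ terminal oligopyrimidine (TOP) motif, through which mTORC1 and LARP1 control their translation. Beta cells depend on a high rate of translation to make proinsulin.

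The starts of the messenger RNAs are shown because the TOP motif is the sequence these genes are known to share. RefSeq promoter entries (GRCm38.p6) matched 66 of the 86 genes, among them 57 of the subunit and stalk proteins. Each line gives 30 bases on the gene's strand, from 10 bases before the annotated start, and capitals mark the first run of at least 7 pyrimidines that begins with C.
Rps6 (chr4:86857348-86857377, minus strand): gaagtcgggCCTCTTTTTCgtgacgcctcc
Rps27 (chr3:90213629-90213658, minus strand): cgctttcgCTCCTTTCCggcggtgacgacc
Rplp2 (chr7:141447641-141447670, plus strand): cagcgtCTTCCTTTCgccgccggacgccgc
Rpl28 (chr7:4792955-4792984, plus strand): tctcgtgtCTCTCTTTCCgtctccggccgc
Rpl35 (chr2:39005112-39005141, minus strand): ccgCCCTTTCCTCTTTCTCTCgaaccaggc
Rpl22l1 (chr3:28805498-28805527, plus strand): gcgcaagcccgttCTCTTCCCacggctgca
Rps27l (chr9:66946076-66946105, plus strand): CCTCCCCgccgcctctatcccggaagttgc
Rpl7l1 (chr17:46782637-46782666, minus strand): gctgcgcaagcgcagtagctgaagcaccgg
Rplp0 (chr5:115559457-115559486, plus strand): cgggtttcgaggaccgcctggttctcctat
Of these 57 genes, 13 (22.8%) had a C at the annotated start followed by at least 4 pyrimidines, against 2.96% of other genes and 3.01% of all genes in the promoter table. A run as capitalised above was present in 27 of the 57 (47.4%), against 15.5% of other genes and 15.6% of all genes. Rplp0 and the paralog Rpl7l1 had no such run in the window, and in the paralog Rps27l the run ended before the start. The letters CCGGAAG, the core bound by ETS factors, were searched on both strands of the 300 bases around the start and occurred in 42.1% of the 57 genes, against 9.93% of all genes. AAGATGG, the core bound by YY1, occurred in 15.8%, against 7.28% of all genes. The reverse strand form of the first motif begins with pyrimidines and can overlap a pyrimidine run. A match is a description of the letters and not of a site in use. Under the high fat diet, the median log2 fold change of KO against WT was 0.50 for the 27 genes with a run (range 0.05 to 1.15) and 0.41 for the 30 without (range −1.24 to 0.87).

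Total counts lay between 16037709 and 20864920 per library. Sirt3 stood at 9.04 to 11.8 CPM (counts scaled by TMM to a common library size) in the 6 WT libraries and at 5.86 to 7.85 CPM in 5 KO libraries. At 11.5 CPM, the library labelled HFD KO 2 lay within the range of WT, and it is also the library in which ribosomal protein genes stood highest. Its Sirt3 level goes against its label, and HFD KO 2 stands throughout for the library so labelled. Sirt3 itself was not called in KO against WT. Its log2 fold change was −0.79 under the standard diet (edgeR adjusted p = 0.156) and −0.35 under the high fat diet (edgeR adjusted p = 0.363). These levels include RNA of non-beta cells, which still carry the gene. Short genes stood high in it: across all genes tested, the deviation from the mean of the 12 libraries had a rank correlation with gene length of −0.477, against −0.279 to 0.303 in the others. Gene length here is that implied by the deposited counts and the deposited levels per kilobase, and not the span on the chromosome. By this measure the median ribosomal protein gene is 701 bp long (range 374 to 1860 bp) and the median of all 16076 genes tested 1799 bp. Ribosomal protein genes are therefore set beside 1169 other genes between their length quartiles (581 to 867 bp), called genes of like length below. All 9 beta cell markers and all 5 alpha cell markers had counts in every library. Among 12 lists of cell type markers, in which no gene was at 0 in all libraries, 2 did not overlap between the high fat groups. The sum of 7 macrophage markers, each with counts in every library, was 144 to 227 CPM in HFD WT and 294 to 363 CPM in HFD KO (STD WT 170 to 232, STD KO 225 to 295). The sum of 4 adipocyte markers, 1 of them with counts in every library, was 14.5 to 25.6 CPM in HFD WT and 30.8 to 39.9 CPM in HFD KO (STD WT 12.6 to 26.6, STD KO 10.4 to 18.1). Their part in the differences below was not tested. In these bulk samples, fewer cells of a type and less RNA per cell cannot be told apart.

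Ribosomal protein genes were among the abundant transcripts of these islets: 71 of the 86 exceeded a mean of 100 CPM, and together they took 2.20% to 3.83% of all counts in 11 libraries and 5.30% in HFD KO 2. Per length, in FPKM (fragments per kilobase scaled to the library total), the highest means over the 12 libraries were those of Rps14 (small subunit, 1590 FPKM), Rpl41 (the very small large subunit protein, 1378 FPKM), Rpl10 (large subunit, 1276 FPKM), Rplp1 (1245 FPKM) and Rplp0 (1154 FPKM). In STD WT, Rps14 stood at 1452 ± 429 FPKM, Rpl10 at 1139 ± 89.6, Rpl41 at 1137 ± 148, Rplp1 at 1116 ± 143 and Rplp0 at 1008 ± 138 (SD, n = 3). These neighbours in the order overlap within their spread. The third stalk protein, Rplp2, stood lower at 490 ± 75.7 FPKM. Rpsa, the laminin receptor protein of the small subunit, had 760 ± 112 FPKM, Rps6, the substrate of S6 kinase, 656 ± 73.4 FPKM, and Rps27a, made as a fusion with ubiquitin, 484 ± 31.7 FPKM. At the other end of the genes with counts in every library, Rps10 averaged 0.750 FPKM, Rpl24 0.834, Rpl36al 2.65, Rps27rt 3.96 and Rpl13a 13.6 FPKM.

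Several of the low values lie in genes whose exons other gene models cover, and neither the strand setting nor the counting rule is stated in the labels, so these levels are uncertain. In the GENCODE M21 annotation, 47.0% of the exonic bases of Rpl24 are also in Gm28037, which had 0 counts, and 28.7% of those of Rps10 are shared with other models. For Rpl35 the share was 66.2%, nearly all of it with Wdr38, for Rpl23a 62.3%, mostly with Tlcd1, and for Rpl13a 35.4% (Rpl23a was chosen after its values were seen). Overlap was not confined to the low genes. Of the 86 genes, 39 had some and 11 had over 20%, among them Rpl5 (26.7%) and Rpl31 (25.3%), which are not among the lowest named above. Both were chosen after their values were seen. Rps27rt, which is among the lowest, had 0.0%. Whether the overlap sets these levels was not tested. Ribosomal protein pseudogenes, which can take reads from their parent genes, had 301 rows and together held counts equal to 0.271% to 0.458% of those of the 86 genes.

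The genes moved together from library to library. Summed over all 86, the level was 30460, 26350 and 26200 CPM in STD WT 1 to 3, and 26090, 31300 and 23350 CPM in STD KO 1 to 3. It was 24630, 37550 and 24080 CPM in HFD WT 1 to 3, and 36830, 58640 and 22530 CPM in HFD KO 1 to 3. HFD KO 2 stood above every other library, HFD WT 2 and HFD KO 1 came next, and HFD KO 3 was the lowest of all 12. The group means were 27670 ± 2415 CPM in STD WT, 26910 ± 4042 in STD KO, 28750 ± 7625 in HFD WT and 39330 ± 18180 in HFD KO (SD, n = 3), so the groups overlapped and the spread in HFD KO was the widest. Of the 83 genes tested, 78 had their highest value in HFD KO 2 and 43 their lowest in HFD KO 3. The sum of the large subunit genes was 1.10 to 1.26 times that of the small subunit genes in all 12 libraries, so the subunits kept nearly the same proportion while the total moved.

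**Figure D1:**
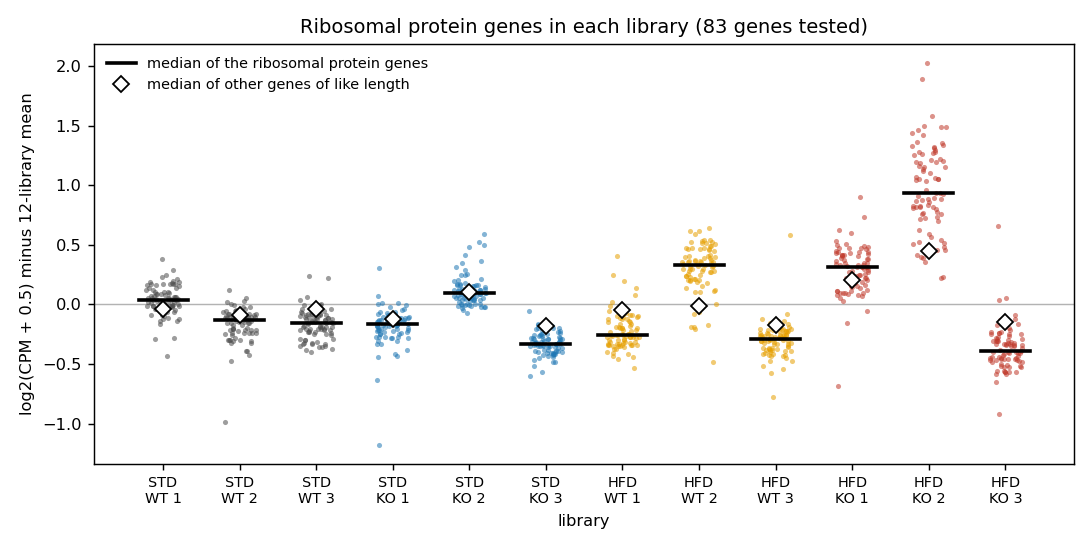
Each point is 1 of the 83 ribosomal protein genes tested, as log2(CPM + 0.5) minus the mean of the 12 libraries (vertical axis), for each library (horizontal axis). Bars are their medians and diamonds the medians of 1169 other genes of like length. The bar stands at 0.94 in HFD KO 2 and at −0.39 in HFD KO 3.

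Measured as log2(CPM + 0.5) against the mean of the 12 libraries, the median gene stood at 0.94 in HFD KO 2, while genes of like length stood at 0.44. In HFD KO 1 the values were 0.31 and 0.21. In HFD WT 2 the ribosomal protein genes stood at 0.33 and genes of like length at −0.01, so this library was high for the former and not for the latter. In HFD KO 3 they stood at −0.39 and −0.14. The genes did not all share the rise of HFD KO 2 equally. Among 78 genes with a mean of at least 10 CPM, the level in HFD KO 2 was 1.10 to 3.83 times the mean of HFD KO 1 and 3, with a median of 1.94. The ratio was lowest for Rpl7l1 (1.10) and Rpl4 (1.14) and highest for Rpl35 (3.83), Rpl22l1 (3.42), Rps12 (2.92) and Rpl9 (2.77). Rpl4, Rps12 and Rpl9 were chosen after their values were seen. In HFD WT 2 the level was 0.891 to 2.06 times the mean of HFD WT 1 and 3, with a median of 1.52. Across the 78 genes these ratios had a rank correlation of 0.41, a description over genes that are not independent and that share each library's depth. Across the same genes the HFD KO 2 ratio had a rank correlation of −0.11 with length and 0.00 with GC content.

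The first comparison asked what loss of Sirt3 in beta cells did under the standard diet. Ribosomal protein genes stood at nearly the same level in KO and WT islets. None of the 83 tested passed the threshold, an adjusted p under 0.05 over all genes in edgeR's quasi-likelihood test, where 1.71% of all genes passed. None had an unadjusted p under 0.05 in edgeR, against 8.66% of all genes, and DESeq2 also called 0, where it called 3.01% of all genes. The median log2 fold change was −0.03, against −0.02 for all genes and −0.03 for genes of like length, and 27 of 83 values were above 0. That count rested on single libraries, being 5 (median −0.17) without STD KO 2 and 66 (median 0.06) without STD KO 3. Rplp0, the anchor of the stalk, stood at 966, 849 and 852 CPM in WT and 875, 1030 and 818 CPM in KO libraries, which overlap (log2 fold change 0.03, SE 0.28). Rps6 stood at 573, 517 and 536 CPM in WT and 542, 642 and 491 CPM in KO, which also overlap (0.04, SE 0.28). The smallest p-values belonged to Rpl24 (0.79, SE 0.66), Rpl30 of the large subunit (−0.18, SE 0.17) and Rpl7l1 (0.14, SE 0.13), with adjusted p from 0.967 to 0.999. Rpl7l1, a paralog of Rpl7 with a part in ribosome assembly, was the only gene whose KO libraries (60.4, 64.1 and 61.4 CPM) all exceeded the WT libraries (52.2, 59.6 and 57.4 CPM). Of all genes tested, 7.52% stood higher without overlap.

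The next comparison set KO against WT islets under the high fat diet. Rps27l, the paralog of Rps27 and a known target of p53, rose in KO islets and was the only gene of the 83 to pass the threshold, where 7.4% of all genes passed and 3.9% were higher. The other genes stood higher on average, with a median log2 fold change of 0.44 and 82 of 83 values above 0, but none of them passed. Genes of like length had a median of 0.29, and 73.5% of them were above 0, while all genes had a median of 0.00. By role, the medians were 0.41 for the large subunit, 0.43 for the small subunit, 0.48 for the P stalk and 1.19 for the 5 paralogs tested. At an unadjusted p under 0.05 in edgeR there were 9 of the 83 genes (10.8%), a smaller share than the 24.3% of all genes. This shortfall depended on the fit. In DESeq2 there were 21 (25.3%), against 25.2% of all genes. With replicate numbers as a block within each diet there were 22 (26.5%), against 26.0%. With offsets corrected for gene length there were 4 (4.82%), against 23.6%. DESeq2 called 2, Rps27l and Rpl22l1 (12.6% of all genes in that test).

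Rps27l stood at 67.8, 67.4 and 55.6 CPM in HFD WT 1 to 3 and at 146, 212 and 79.5 CPM in HFD KO 1 to 3. Every KO library lay above every WT library, the lowest of them, HFD KO 3, by the smallest margin. The log2 fold change was 1.19 (SE 0.29), with an adjusted p of 0.0305 in edgeR's quasi-likelihood test. The gene lies on chromosome 9, 66946086 to 66949516, plus strand (ENSMUSG00000036781, mm10). In the standard diet groups it stood at 73.0, 62.8 and 60.7 CPM in WT and 57.2, 83.1 and 58.1 CPM in KO, which overlap. Corrected for gene length, the difference was 0.78 (SE 0.14, adjusted p = 0.00532 in edgeR). Without the library labelled HFD KO 2 the log2 fold change was 0.82 (SE 0.25). The call was lost, with the log2 fold change between 0.82 and 1.24, when HFD WT 1, 2 or 3 or HFD KO 1 or 2 was left out (edgeR adjusted p = 0.0738, 0.0644, 0.15, 0.0982 and 0.0988), and when the other diet was left out of the fit (adjusted p = 0.121).

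**Figure D2:**
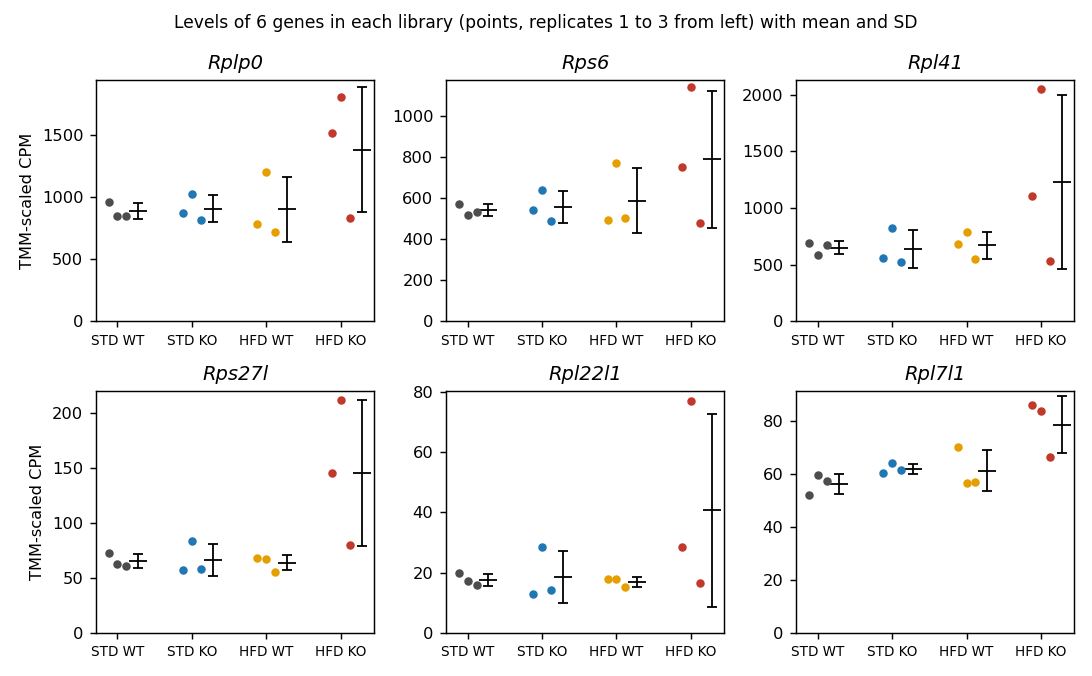
Levels in TMM-scaled CPM (vertical axes, from 0) of Rplp0, Rps6, Rpl41, Rps27l, Rpl22l1 and Rpl7l1 in the 4 groups. Points are libraries 1 to 3 from left to right and the bars give mean and SD. Rps27l separates the high fat groups, whereas in the panels of Rplp0, Rps6 and Rpl41 the third HFD KO library lies within the WT range or below it.

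Among the other paralogs, Rpl22l1, which stands in for the RNA-binding protein Rpl22, was at 17.9, 17.8 and 15.1 CPM in HFD WT and at 28.5, 76.9 and 16.5 CPM in HFD KO. HFD KO 3 lay inside the WT range, and the log2 fold change of 1.26 (SE 0.49) missed the threshold (edgeR adjusted p = 0.146). Rpl36al, the paralog of Rpl36a, was low throughout but did not overlap, with 2.84, 1.31 and 0.972 CPM in HFD WT and 3.71, 5.04 and 3.49 CPM in HFD KO (1.25, SE 0.54, edgeR adjusted p = 0.18). Other gene models cover 24.5% of its exons. Rpl7l1 was at 70.2, 56.6 and 56.9 CPM in HFD WT and 86.1, 83.6 and 66.3 CPM in HFD KO, which overlap (0.36, SE 0.13, edgeR adjusted p = 0.117). Rps27rt, a retrotransposed copy of Rps27, was at 0.485 to 4.00 CPM in these 6 libraries and overlapped (0.61, SE 0.64). So 2 of the 83 genes, Rps27l and Rpl36al, stood higher in KO without overlap and 0 lower, where 11.2% of all genes tested were higher without overlap.

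Of the stalk proteins, Rplp0 was at 783, 1206 and 720 CPM in HFD WT and 1514, 1806 and 830 CPM in HFD KO. The gene lies on chromosome 5, 115559467 to 115563727, plus strand (ENSMUSG00000067274, mm10). Its log2 fold change was 0.62 (SE 0.28, edgeR adjusted p = 0.203), and HFD KO 3 lay below HFD WT 2. Rplp1 was at 487, 744 and 463 CPM in WT and 754, 1120 and 483 CPM in KO (0.48, SE 0.28). Rplp2 was at 251, 422 and 247 CPM in WT and 316, 531 and 209 CPM in KO, where HFD KO 3 was the lowest of the 6 (0.20, SE 0.33). All 3 stalk genes were highest in HFD KO 2, and the high fat groups overlapped for each of them.

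In the large subunit, Rpl41 was at 685, 784 and 546 CPM in HFD WT and 1107, 2051 and 531 CPM in HFD KO, and its log2 fold change was 0.87 (SE 0.39, edgeR adjusted p = 0.192). The gene lies on chromosome 10, 128548114 to 128549305, minus strand (mm10), and HFD KO 3 was again the lowest of the 6. Rpl10, which joins the subunit last, was at 822, 943 and 750 CPM in WT and 1170, 1523 and 781 CPM in KO (0.47, SE 0.22). Rpl35, at the exit of the protein tunnel, had the highest difference of the large subunit, 1.15 (SE 0.56), with 33.3, 51.9 and 27.3 CPM in WT and 57.1, 164 and 28.8 CPM in KO. Its value rests on HFD KO 2. At the other end, Rpl28 was at 234, 357 and 232 CPM in WT and 278, 358 and 215 CPM in KO (0.05, SE 0.21), so the groups overlapped. Rpl24 was the 1 gene below 0, at −1.24 (SE 0.69, edgeR adjusted p = 0.296), with under 1 CPM in every library.

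In the small subunit, Rps27a was at 314, 418 and 290 CPM in HFD WT and 534, 985 and 289 CPM in HFD KO (log2 fold change 0.82, SE 0.35, edgeR adjusted p = 0.178). Its lowest KO and lowest WT libraries were level. Rps21 had 0.72 (SE 0.35), Rps14 0.54 (SE 0.41) and Rps6 0.43 (SE 0.28). Rps6 was at 495, 770 and 502 CPM in WT and 754, 1142 and 478 CPM in KO, so HFD KO 3 was the lowest and HFD WT 2 exceeded HFD KO 1. Rpsa was at 697, 1183 and 732 CPM in WT and 997, 1417 and 623 CPM in KO (0.22, SE 0.30), which overlap in the same way. Rps19bp1, the gene that is no ribosomal protein, had 0.24 (SE 0.22).

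**Figure D3:**
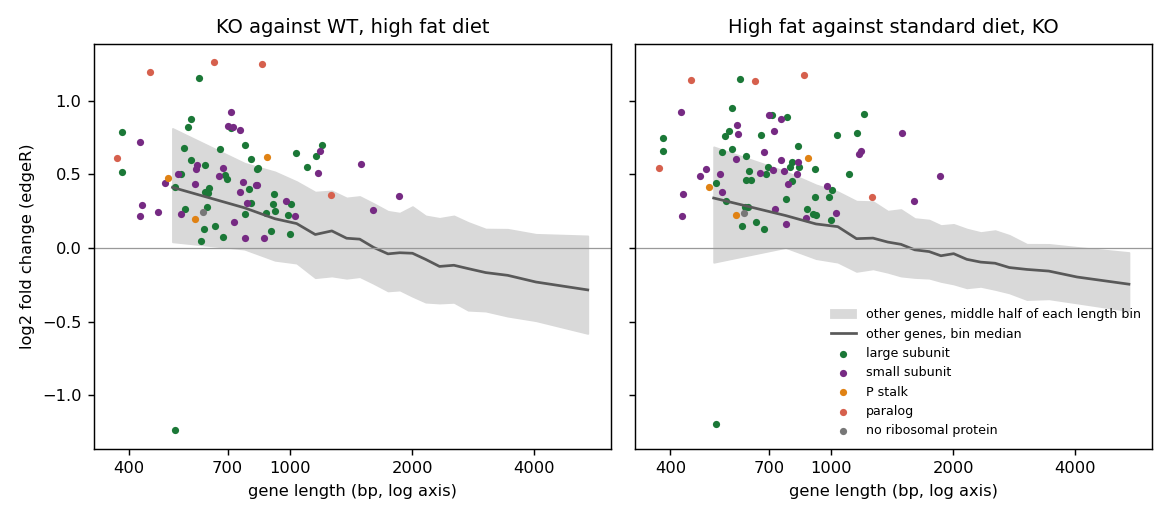
Log2 fold change (vertical axis) against gene length in bp (horizontal log axis) for KO against WT under the high fat diet (left) and high fat against standard diet in KO (right). Coloured points are ribosomal protein genes by role, the line is the median of 20 length bins of other genes and the band spans their quartiles. In the left panel the line falls from 0.41 in the shortest bin to −0.28 in the longest, and most coloured points lie at or above it.

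Gene length moved with this difference. Across all genes tested the log2 fold change had a rank correlation of −0.31 with length, and 800 other genes of the shortest bin (median 512 bp) had a median of 0.41. Within the 83 ribosomal protein genes the correlation with length was −0.09, and that with GC content was −0.01. With offsets corrected for gene length in each library, the median of the ribosomal protein genes was 0.12 and that of genes of like length 0.01, and 63 of 83 values were above 0. Rps27l passed there too, and it was the only 1 of the 83, where 8.42% of all genes passed. The source of the trend with length was not tested.

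The size of the family's difference depended on single libraries. Without HFD KO 2, whose Sirt3 level lay within the WT range, the median log2 fold change was 0.03, against 0.11 for genes of like length, and 0 genes passed in edgeR, where 4.62% of all genes did (2 of the 83 at an unadjusted p under 0.05, against 18.1% of all genes). Without HFD KO 3 it was 0.75, against 0.45, and 27 of 83 genes rose, where 17.6% of all genes passed and 8.94% were higher. Of genes of like length, 21.2% rose in that fit. The 27 were 17 of 43 large subunit genes, 6 of 31 small subunit genes, Rplp0 of the stalk and 3 of 5 paralogs. Examples are Rpl41 (log2 fold change 1.26, SE 0.29, edgeR adjusted p = 0.0183), Rps27a (1.18, SE 0.27, adjusted p = 0.0175) and Rpl22l1 (1.67, SE 0.43, adjusted p = 0.0292). Corrected for length as well, 4 passed the threshold in edgeR, Rps27l, Rpl22l1, Rpl41 and Rps27a, where 13.7% of all genes passed. Without both HFD WT 2 and HFD KO 2, a choice made after seeing the data, the median was 0.26 and 0 passed in edgeR, where 4.72% of all genes did (3 of the 83 at an unadjusted p under 0.05, against 19.8% of all genes). Without HFD WT 2 alone the median was 0.69 and 0 passed in edgeR, where 8.14% of all genes did. In that fit 20 of the 83 (24.1%) had an unadjusted p under 0.05, as did 26.5% of all genes. The labels give no reason to drop any of these libraries, and each fit without 1 rests on 2 libraries of that group.

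**Figure D4:**
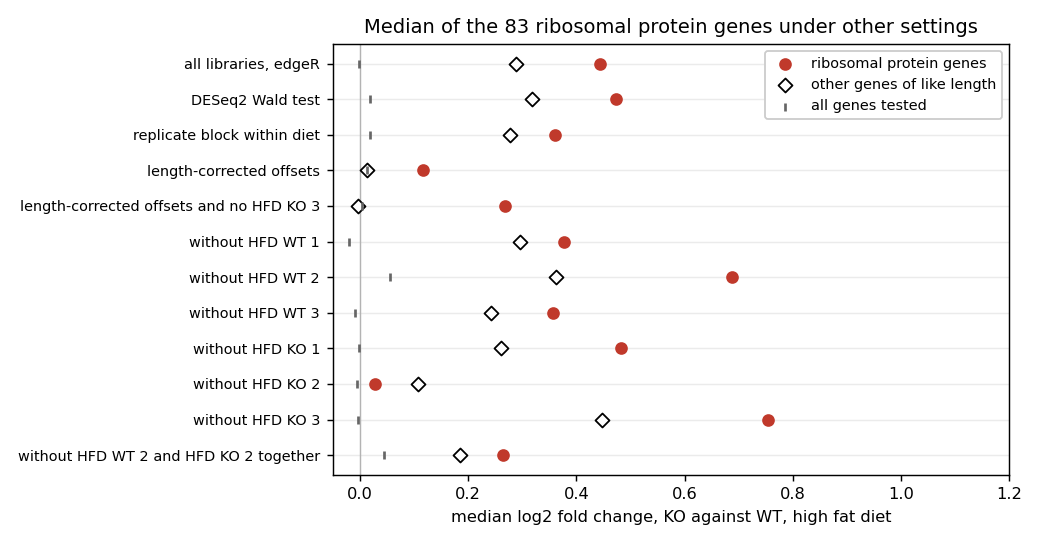
Median log2 fold change of KO against WT under the high fat diet (horizontal axis) under 12 settings (rows), for the 83 ribosomal protein genes (filled circles), other genes of like length (diamonds) and all genes tested (ticks). The circles range from 0.03 without HFD KO 2 to 0.75 without HFD KO 3, and they lie to the right of the diamonds in every setting shown except that without HFD KO 2.

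A paralog can also be read against its parent within each library, so that a level common to both cancels. Rps27l stood at 21.7%, 12.9% and 18.3% of the FPKM of Rps27 in HFD WT 1 to 3 and at 37.5%, 30.01% and 31.1% in HFD KO 1 to 3. Every HFD KO library lay above all 9 others, the highest of which was STD KO 2 at 23.2%. The means were 17.6 ± 4.43% in HFD WT and 32.8 ± 4.03% in HFD KO (SD, n = 3), with p = 0.1 in a two-sided exact permutation test, the smallest p that 3 against 3 allow. Between STD KO (20.5 ± 2.69%) and HFD KO the exact p was also 0.1. Rps27 itself had a log2 fold change of 0.25 (SE 0.33) between the high fat groups. Rpl36al stood at 1.004 ± 0.68% of Rpl36a in HFD WT and 2.19 ± 0.455% in HFD KO (exact permutation p = 0.1, two-sided). For Rpl22l1 over Rpl22 (18.1 ± 4.50% and 30.4 ± 11.8%) the exact permutation p was 0.2, and for Rpl7l1 over Rpl7 (12.2 ± 3.79% and 12.7 ± 2.88%) it was 0.8. With 4 pairs and 4 comparisons tested in this way, none can pass an adjustment. The pairs were chosen after the values of Rps27l were seen, and reads shared by near-identical copies could be split between parent and paralog.

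**Figure D5:**
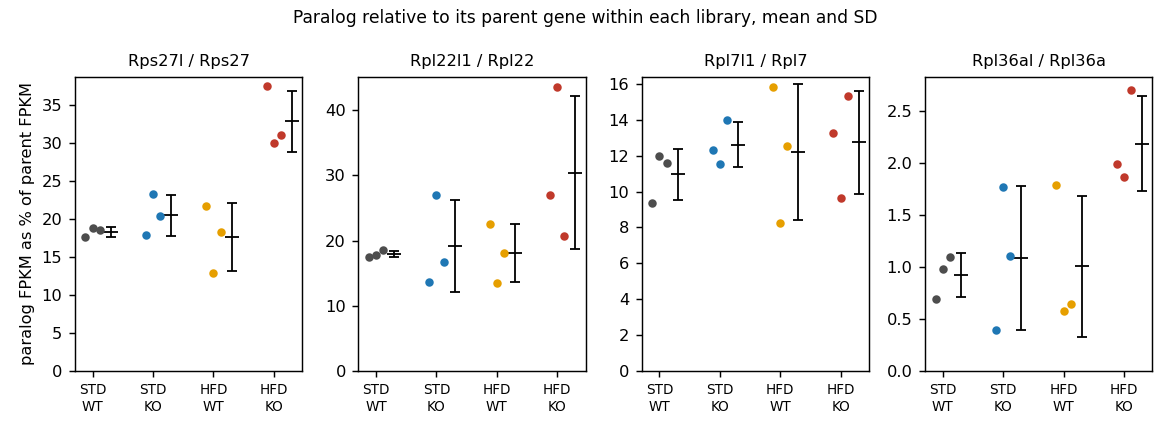
FPKM of each paralog as a percentage of its parent gene (vertical axes, from 0) in the libraries of the 4 groups, with mean and SD. In the first panel, the HFD KO libraries lie between 30.01% and 37.5% and all others between 12.9% and 23.2%.

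The third comparison set the high fat against the standard diet in WT islets. Ribosomal protein genes did not pass in any case: 0 of 83 in edgeR, 0 at an unadjusted p under 0.05 and 0 in DESeq2, where edgeR called 0.0% of all genes and DESeq2 0.267%. In edgeR 4.74% of all genes had an unadjusted p under 0.05. The median log2 fold change was 0.04, against 0.01 for all genes and −0.02 for genes of like length, with 65 of 83 values above 0. Its direction rested on single libraries: the median was −0.16 with 4 values above 0 without HFD WT 2, and 0.16 with 80 above 0 without HFD WT 3. It was −0.12 with 13 above 0 under the replicate block within diet. Rps6 stood at 495, 770 and 502 CPM in HFD WT, of which only HFD WT 2 exceeded the STD WT range given above. No gene of the 83 differed without overlap, where 9.59% of all genes did.

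The fourth comparison set the high fat against the standard diet in KO islets, and it uses the same HFD KO libraries as the second. No gene of the 83 passed in edgeR, where 0.0435% of all genes passed. At an unadjusted p under 0.05 in edgeR there were 13 of the 83 genes (15.7%), against 12.5% of all genes. They were led by Rps27l (log2 fold change 1.14, SE 0.29, edgeR adjusted p = 0.295), Rpl7l1 (0.34, SE 0.13), Rps21 (0.92, SE 0.35) and Rpl10 (0.55, SE 0.22). The share depended on the fit. In DESeq2 there were 33 (39.8%), against 12.9% of all genes, and with a replicate block 26 (31.3%), against 13.3%. With length-corrected offsets there were 5 (6.02%), against 11.8%, and with the block within diet 3 (3.61%), against 18.3%. DESeq2 called 1, Rps27l (1.17, SE 0.30, adjusted p = 0.0231), where it called 0.871% of all genes. The median was 0.52, against 0.24 for genes of like length, and 0.22 with offsets corrected for length. It was 0.13 without HFD KO 2 and 0.83 without HFD KO 3, where 14 genes rose in edgeR, 4.87% of all genes passed and 3.81% were higher. Of genes of like length 13.0% were higher in that fit. Corrected for length as well, 1 passed in edgeR, Rps27l, where 2.71% of all genes did. Rpl36al and Rpl7l1 stood higher under the high fat diet without overlap, where 5.91% of all genes did. For Rpl7l1 the STD KO values of 60.4 to 64.1 CPM lay just below the 66.3 to 86.1 CPM of HFD KO.

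Whether the genotype difference itself changed with diet was tested as an interaction, which again rests on the HFD KO libraries. In edgeR 0 of 83 genes passed, where 0.0% of all genes did. At an unadjusted p under 0.05 there was 1 of the 83 (Rps27l, 1.18, SE 0.41, edgeR adjusted p = 0.621), against 7.91% of all genes. DESeq2 called 0 (0.193% of all genes). The median was 0.47, against 0.31 for genes of like length, 0.16 with length-corrected offsets and 0.07 without HFD KO 2. Without HFD KO 3 it was 0.76, and 41 of the 83 genes (49.4%) had an unadjusted p under 0.05, against 18.5% of all genes, although 0 passed. Without HFD WT 2 it was 0.70, with 3 of the 83 genes at an unadjusted p under 0.05, against 10.1% of all genes, and 0 past the threshold.

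Other genes of the translation machinery were read in the same fits. Of 20 TOP-type messenger RNAs of translation factors and related proteins, 0 passed in the comparison of KO and WT under the high fat diet (5 at an unadjusted p under 0.05, 2 higher in DESeq2), with a median log2 fold change of 0.32. In this comparison 7.4% of all genes passed and 24.3% had an unadjusted p under 0.05. Eif3m (0.79, SE 0.23, edgeR adjusted p = 0.0610) and Nap1l1 (0.34, SE 0.13) had the smallest p-values of the TOP-type list. For Eif3m, HFD KO 3 (88.4 CPM) lay below HFD WT 1 (89.6 CPM). The elongation factor gene Eef1a1 had 0.32 and the translationally controlled Tpt1 0.45, whereas the elongation factor Eef2 had −0.14 and the poly(A)-binding protein Pabpc1 −0.18, none past the threshold and each chosen after its values were seen. Of 40 ribosome biogenesis genes 0 passed (5 at an unadjusted p under 0.05, 1 in DESeq2), with a median of 0.02, and the smallest p-values were those of Nop10 (0.77, SE 0.26) and Nip7 (0.68, SE 0.23). Of 77 mitochondrial ribosomal protein genes 1 rose, Mrpl50 (0.62, SE 0.16, edgeR adjusted p = 0.0397). At an unadjusted p under 0.05 there were 38 of the 77, a larger share than that of all genes or of the cytosolic genes (10.8%). DESeq2 called 5, all higher, where it called 12.6% of all genes. The list's median was 0.42, close to that of the cytosolic genes, although the genes are longer (median 1122 bp). With length-corrected offsets its median was 0.26, and 2 of its genes rose.

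Of 21 genes of mTORC1 and S6 kinase control of translation, 1 was higher and 2 were lower in KO than in WT islets under the high fat diet. Of all genes, 3.9% were higher and 3.5% lower. At an unadjusted p under 0.05 there were 8 of the 21, against 24.3% of all genes, and DESeq2 called 2 higher and 3 lower. The higher gene was Eif4ebp1, the repressor of cap-dependent initiation that mTORC1 inactivates (log2 fold change 0.73, SE 0.20, edgeR adjusted p = 0.0479). It had 23.6, 17.1 and 19.7 CPM in HFD WT and 31.8, 40.2 and 28.1 CPM in HFD KO, which do not overlap. Between the diets its log2 fold change was −0.46 in WT and −0.01 in KO, neither past the threshold. Rptor, the scaffold of mTORC1, was lower by 0.71 (SE 0.17, edgeR adjusted p = 0.0311), and Tsc2, an inhibitor of mTORC1, by 0.68 (SE 0.18, edgeR adjusted p = 0.0446). For both, HFD WT stood above the 3 other groups. Rptor was at 45.13 to 47.35 CPM there, 30.24 to 33.77 in STD WT, 27.88 to 42.88 in STD KO and 23.41 to 34.78 in HFD KO. In WT islets the high fat diet went with log2 fold changes of 0.52 for Rptor and 0.44 for Tsc2, neither past the threshold. Rptor and Tsc2 act in opposite directions in the pathway, and both are longer (2763 and 2025 bp) than the median gene tested. With length-corrected offsets 2 genes of this list were higher and 2 lower in KO under the high fat diet, where 8.42% of all genes passed. Under the standard diet 0 genes of these 4 lists passed in edgeR or DESeq2, and 0 had an unadjusted p under 0.05, against 8.66% of all genes in edgeR. Between the diets in KO islets 0 passed in edgeR, while 6 TOP-type, 5 biogenesis, 2 mTORC1 and 34 mitochondrial ribosomal protein genes had an unadjusted p under 0.05, and DESeq2 called 1 TOP-type gene. Of all genes, 12.5% had an unadjusted p under 0.05 there, the share of the biogenesis list. The mTORC1 list lay below that share, and the TOP-type list (6 of 20) and the mitochondrial ribosomal protein list (34 of 77) lay above it.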

How the data were processed

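RNA from islets was sequenced in 12 libraries, 3 in each of 4 groups. For each library the authors deposited read counts per gene (54532 genes) together with FPKM values. Gene length was itself derived from these counts and FPKM values. With the same length for a gene in every library, count and total gave back all 257939 FPKM values compared (tolerance 1e-04). The agreement shows that counts and FPKM values match across libraries, and it is no check on the length. Where a gene had counts in few libraries it says little. The submitters' processing notes name TopHat2, Cufflinks, DESeq and the mm10 build. The counting tool, its strand setting and the annotation release were not given in the sources used here. Symbols and coordinates came from GENCODE M21 (GRCm38, which is mm10), and promoters from RefSeq.

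The count data were tested in R 4.3.3 with edgeR 4.0.16 (robust quasi-likelihood fit over all 4 groups, TMM scaling, filterByExpr with a minimum count of 10 and a total of 15), with Benjamini-Hochberg adjustment over 16076 genes and a threshold of 0.05. The common coefficient of biological variation was 0.307, which limits the precision at the given depth of 16037709 to 20864920 counts per library. Levels are TMM-scaled CPM across libraries and FPKM between genes. Length-corrected offsets took out a lowess trend on gene length in each library (span 0.3). The fits were tested on simulated data. Alternatives were DESeq2 1.42.0, its size factors, other filters, fits on the compared groups only, a replicate block, and libraries left out.

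Replicate numbers are shared across groups. Same-numbered HFD KO and HFD WT libraries deviated together (r = 0.52, 0.41 and 0.34 across genes), whereas the standard diet groups did not (r = 0.00, −0.17 and −0.23). The high fat libraries thus met a rule for pairs that asks for every r above 0.1. The reported fit and the permutation tests did not use these pairs and treated the libraries as unpaired. Only the fits with a replicate block used the numbers, and the block within diet was added after the data were seen. The labels state no shared animal, litter or day.

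The genes, lists and tests were chosen with earlier results of these data known. Named genes are the stalk genes, Rpsa, Rps6, Rps27a, the paralogs, genes past the threshold or, failing 3, with the 3 smallest p-values, the highest and lowest by fold change (mean of at least 10 CPM) and by FPKM (5 each), and those over 1 log2 unit from the median. Of each other list, up to 4 genes past the threshold or else the 2 with the smallest p were named, for KO against WT under the high fat diet. Any other gene is said to have been chosen after its values were seen.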

Additional observations from a re-analysis of the deposited data

How the results depend on the processing

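The count of ribosomal protein genes past the threshold for KO against WT under the high fat diet was 1 in the reported fit. It was 2 with DESeq2, 4 with length-corrected offsets and no HFD KO 3, and 0 with the compared groups only, without STD WT 3 and HFD KO 2 together, and without HFD WT 2 and HFD KO 2 together. Leaving out 1 library at a time gave 0 to 27, and medians of 0.03 to 0.75. For high fat against standard diet in KO islets the reported 0 became 1 with DESeq2 and 1 with length-corrected offsets and no HFD KO 3, and leave-one-out fits gave 0 to 14, with medians of 0.13 to 0.83. Its median was 0.029 with length-corrected offsets and neither HFD WT 2 nor HFD KO 2. Over leave-one-out fits the interaction median ran from 0.066 to 0.757, that of KO against WT under the standard diet from −0.17 to 0.06 and that of the diets in WT islets from −0.16 to 0.16. With the replicate block, 1 ribosomal protein gene passed under the high fat diet, Rps27l (median of the 83 genes 0.39, or 0.36 with the block coded within diet), and the block changed no other call among these genes. For all genes, the 1189 called under the high fat diet became 2033 with DESeq2, 543 with the compared groups only and 2256 with length-corrected offsets and no HFD KO 3, and leave-one-out fits gave 519 to 2899. The 275 called under the standard diet became 484 with DESeq2 and 146 to 296 in leave-one-out fits. The 7 called between diets in KO islets became 140 with DESeq2, 0 with the replicate block and 0 to 801 in leave-one-out fits. No value of a named gene that passed changed sign. The causes of these changes were not tested. Rpl24, Rps10, Rpl36al and Rps27rt have too few counts for a firm statement.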

Other observations

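Rps27l is a known target of p53, so 3 genes of that pathway were read as well, chosen after the values of Rps27l were seen. Under the high fat diet, Cdkn1a, the cell cycle inhibitor that p53 induces, had a log2 fold change of 0.85 in KO against WT (edgeR adjusted p = 0.0427). Mdm2, the p53 ligase that p53 also induces, had 0.16 (edgeR adjusted p = 0.413), and Trp53 itself had −0.03 (edgeR adjusted p = 0.948). Cdkn1a and Rps27l differed in the other comparisons. In KO against WT under the standard diet Cdkn1a had 0.55 (edgeR adjusted p = 0.453) and Rps27l 0.01. Between the diets in KO islets Cdkn1a had 0.12 and Rps27l 1.14, neither past the threshold in edgeR. A part of p53 was not tested.

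The sum of 5 erythrocyte markers reached its highest level, 295 CPM, in HFD KO 2, the library in which 78 of the 83 ribosomal protein genes were also highest. The sums of 5 alpha cell markers (35560 CPM) and of 4 delta, PP and epsilon cell markers (8179 CPM) were highest there too, as was the sum of 7 macrophage markers (363 CPM). For the alpha cell markers STD WT 2 stood close behind at 35130 CPM. The sums of the beta, acinar, ductal, endothelial, lymphocyte, stellate cell, adipocyte and Schwann cell markers were highest in other libraries. The part of these cells in the levels of ribosomal protein genes was not tested.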
